A study of Homo sapiens with 9 samples.

Results

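The Sprouty genes SPRY1, SPRY2 and SPRY4 and the SPRED genes SPRED1, SPRED2 and SPRED3 encode inhibitors of growth factor signalling, and their RNA was compared between a lung adenocarcinoma line and its drug-resistant derivatives. They were taken by symbol from a table of 24069 rows, where each of the 6 had a row of its own. Of the 6 genes, 5 were among the 12011 rows tested, and SPRED3 was too low. LC-2/ad is an established human line that carries a CCDC6-RET fusion, and its parental cells, labelled LC2, have no drug stated. PR1 and PR2 are derivatives resistant to ponatinib, a kinase inhibitor that acts on RET among others, and per the labels both were grown in 200 nM of it. Each group had 3 RNA-seq libraries, lettered A, B and C, and the labels do not say whether these were separate cultures or whether each derivative is 1 clone. The p-values therefore measure only how far these libraries scatter, and that scatter may be technical. Resistance and the presence of the drug cannot be told apart in a comparison with parental cells, nor, in bulk RNA, fewer expressing cells from less RNA per cell.

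Receptor tyrosine kinases act through RAS and RAF on the kinase ERK, and ERK activity induces genes whose products switch the same pathway off again. Sprouty proteins are such inducible inhibitors. They were first known for limiting branching of the airway, where they restrain signalling by fibroblast growth factor receptors, and they bind adaptor and ubiquitin ligase proteins such as GRB2 and CBL. SPRED proteins share the cysteine-rich Sprouty domain and add an EVH1 domain that binds neurofibromin, the product of NF1, which they bring to the membrane where it turns RAS off.

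Promoter windows are shown for 4 of the genes, the gene with the largest fold change among those given a fold (SPRY4), the gene listed at 0 in PR2 (SPRED1) and those with a motif match and a change in the data (SPRY2, SPRED2). Each window is from RefSeq, build GRCh38.p14, runs from 250 bases before to 50 bases after an annotated start site, and is written 5′ to 3′ on the gene's strand, with motif matches in capitals. The SPRY4 window is chr5:142324198-142324497 on the minus strand, the SPRED1 window chr15:38252586-38252885 on the plus strand, the SPRY2 window chr13:80340059-80340358 on the minus strand and the SPRED2 window chr2:65366729-65367028 on the minus strand.
SPRY4: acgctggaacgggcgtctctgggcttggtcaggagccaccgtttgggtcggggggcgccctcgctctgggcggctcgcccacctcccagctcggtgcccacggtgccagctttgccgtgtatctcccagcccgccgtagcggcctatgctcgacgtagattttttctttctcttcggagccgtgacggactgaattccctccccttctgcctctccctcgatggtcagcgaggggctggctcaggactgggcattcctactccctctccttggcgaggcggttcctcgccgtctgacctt
SPRED1: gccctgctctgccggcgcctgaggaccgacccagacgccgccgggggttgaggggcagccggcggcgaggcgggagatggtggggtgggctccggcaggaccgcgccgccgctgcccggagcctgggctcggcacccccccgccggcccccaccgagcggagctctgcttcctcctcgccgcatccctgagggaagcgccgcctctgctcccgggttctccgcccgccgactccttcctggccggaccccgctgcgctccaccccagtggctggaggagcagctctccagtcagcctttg
SPRY2: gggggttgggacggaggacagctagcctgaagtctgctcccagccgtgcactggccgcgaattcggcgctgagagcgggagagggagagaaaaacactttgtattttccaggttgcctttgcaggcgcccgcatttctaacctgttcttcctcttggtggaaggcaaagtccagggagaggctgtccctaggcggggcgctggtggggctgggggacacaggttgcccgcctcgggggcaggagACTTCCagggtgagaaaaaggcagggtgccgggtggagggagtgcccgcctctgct
SPRED2: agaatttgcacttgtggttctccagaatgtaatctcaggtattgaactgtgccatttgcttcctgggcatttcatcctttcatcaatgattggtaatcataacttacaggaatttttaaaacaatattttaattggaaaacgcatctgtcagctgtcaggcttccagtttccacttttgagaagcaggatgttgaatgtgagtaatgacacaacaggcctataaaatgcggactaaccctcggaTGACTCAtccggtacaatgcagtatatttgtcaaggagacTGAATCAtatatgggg
All 6 genes had windows, 11 in number. Motifs were searched on both strands: the ETS site CCGGAAGT (in 4.14% of all 35116 windows of this length), the ETS core GGAAGT that lies within it (22.8%), the cyclic AMP response element TGACGTCA (1.85%), the AP-1 site TGANTCA (7.71%) and the core of the serum response element (0.0342%). SPRY2 held the ETS core on the opposite strand, as ACTTCC starting 6 bases before this start site. SPRED2 held the AP-1 letters TGACTCA starting 6 bases before this start and TGAATCA starting 35 bases into the transcript. A window of SPRED3 held ACTTCC starting 148 bases before its start and TGACTCA starting 60 bases before it. The other windows of SPRY2, SPRED2 and SPRED3, at other annotated starts, and the windows of SPRY1 held none of the searched letters. None of the searched letters were in the SPRY4 and SPRED1 windows shown, whose G and C bases made up 65.0% and 76.3%, against a median of 58.7% over all windows. A match is a description of letters, and binding was not measured.

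Abundance is given in FPKM, fragments corrected for transcript length and for the size of the library. FPKM is per length, so genes can be set side by side. The columns summed to between 571570 and 686460, from 11263 to 11629 rows reached 1 FPKM in a library, and relative depth, read from the steps between low values, was 0.757 to 1.01 of LC2 A. Absolute depth is unknown. All 10 epithelial markers reached 1 FPKM in at least 1 library. EPCAM lay between 286 and 426 FPKM and the lung lineage factor NKX2-1 between 51.9 and 163. SFTPB went from at least 40.6 FPKM in LC2 to at most 0.0352 in PR2. At a limma adjusted p under 0.05, 1 of the 10 was higher in PR2 than in LC2 and 3 were lower, beside 13.6% and 9.83% of all rows tested. In PR1 against LC2, 2 were higher and 1 lower, beside 7.56% and 7.98%. Of 8 fibroblast markers only COL1A1 reached 1 FPKM in any library, of 7 blood cell markers only CD14, and of 6 endothelial markers KDR and PECAM1 (at most 6.46). The summed blood cell markers were 3.68 to 9.25 FPKM in LC2, 1.30 to 1.84 in PR1 and 0.778 to 1.27 in PR2, most of it CD14, while the leukocyte marker PTPRC was at most 0.0196 in any library.

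PR2 had less SPRY4 and SPRED2 RNA than parental cells, and SPRED1, called lower, was listed at an exact 0 that may be a failed estimate. PR1 was called higher in SPRY2 and lower in SPRY4 RNA than parental cells, but these calls held in only 7 of 14 and 5 of 14 alternative analyses. The 5 genes tested were all lower in PR2 than in PR1, by 1.49-fold for SPRED2 and 11.2-fold for SPRY4 in ratios of mean FPKM, with SPRED1 listed at 0 in PR2. Of these calls, only that of SPRY4 held in every alternative analysis. Log2 fold changes below are limma estimates of FPKM with a pseudocount of 1, a scale on which changes of low genes come out too small. Genes were called at an adjusted p under 0.05.

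**Figure D1:**
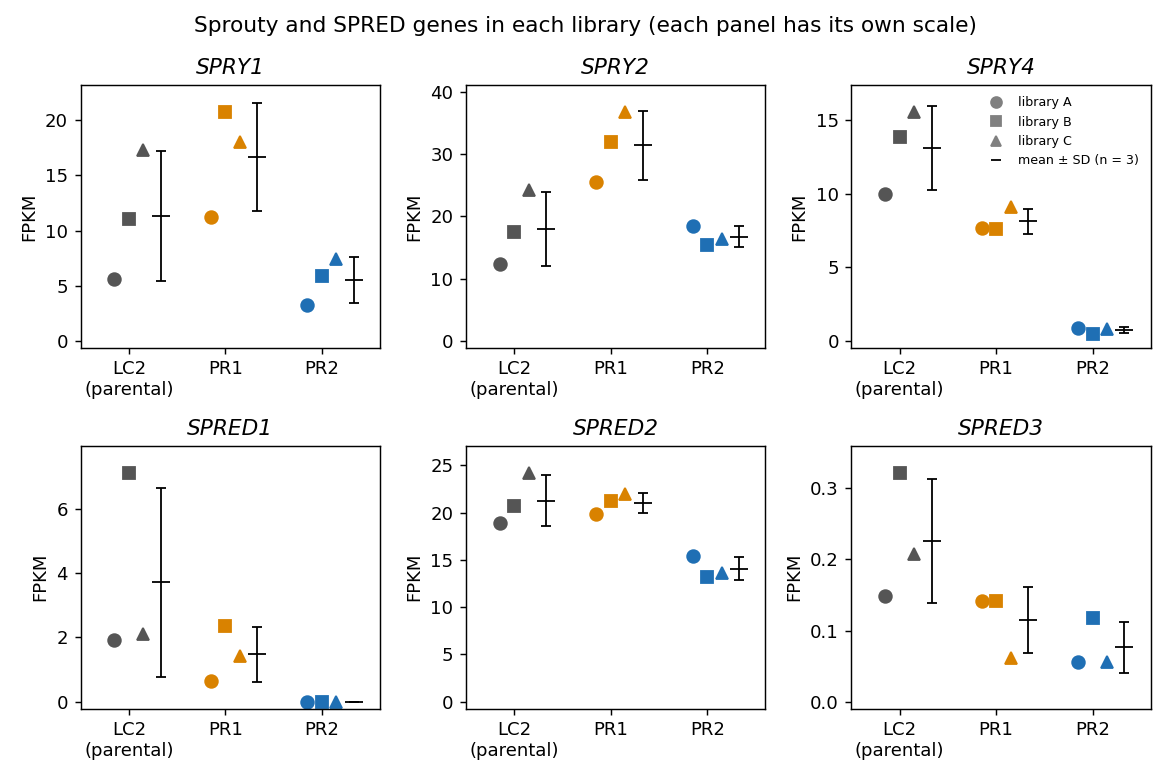
FPKM of each of the 6 genes in parental LC-2/ad cells (LC2, grey) and the derivatives PR1 (orange) and PR2 (blue), with the letter of the library as the symbol and the mean with its SD (n = 3) beside each group; each panel has its own scale. SPRY4 lies between 0.484 and 0.853 FPKM in PR2 against 9.99 to 15.5 in LC2, and SPRED1 is at 0 in each PR2 library.

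SPRY4, an inhibitor of the RAS pathway whose transcript is a common readout of ERK activity, had the largest log2 fold change among the genes for which a fold is given. Its values in LC2 were 9.99, 13.8 and 15.5 FPKM in libraries A, B and C. In PR1 they were 7.67, 7.60 and 9.14 FPKM. In PR2 they were 0.853, 0.484 and 0.848 FPKM. The 3 groups did not overlap, and PR1 lay between the other 2, close below the lowest parental library. The means were 13.1 ± 2.85 FPKM (SD, n = 3) in LC2, 8.14 ± 0.868 in PR1 and 0.728 ± 0.212 in PR2. SPRY4 was 18.0-fold lower in PR2 than in LC2 by the ratio of means, with a log2 fold change of −3.02 ± 0.18 (SE, limma adjusted p = 5.0e-06). Against PR1 the log2 fold change was −2.41 ± 0.18 (limma adjusted p = 2.9e-05). Both calls held in 14 of 14 alternative analyses, with log2 fold changes of −4.01 to −2.89 against LC2 and −3.34 to −2.30 against PR1. The smaller fall in PR1 against LC2 was −0.61 ± 0.18 (limma adjusted p = 0.047). It held in 5 of 14 alternatives and was lost without LC2 B, LC2 C, PR1 A, PR1 B or PR1 C, where the limma adjusted p reached 0.15. In each letter taken alone, SPRY4 was lower in PR1 than in LC2 and lower again in PR2. Among 12011 rows tested, 43.3% had a higher mean than SPRY4 in LC2, 57.5% in PR1 and 97.2% in PR2.

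SPRY2, the family member best known for binding CBL and GRB2, had the highest mean of the 6 in both derivatives. It stood at 12.4, 17.4 and 24.2 FPKM in LC2 A, B and C. PR1 had 25.6, 31.9 and 36.7 FPKM, and PR2 had 18.5, 15.3 and 16.4. The PR1 libraries were all above the others, by a narrow margin between PR1 A and LC2 C, while the PR2 values lay inside the parental range. The mean was 18.0 ± 5.91 FPKM in LC2 (SD, n = 3) and 31.4 ± 5.57 in PR1, where SPRY2 rose by 0.80 ± 0.23 on the log2 scale (SE, limma adjusted p = 0.040). This call held in 7 of 14 alternatives and was lost without LC2 A, LC2 B, PR1 B or PR1 C (limma adjusted p up to 0.14). PR2, at 16.7 ± 1.62 FPKM, gave a log2 difference from LC2 of −0.057, with a 95% interval of −0.56 to 0.45 (limma adjusted p = 0.89). SPRY2 was lower in PR2 than in PR1 by −0.86 ± 0.23 on the log2 scale (limma adjusted p = 0.025), a call lost without PR1 B, PR1 C, PR2 B or PR2 C (limma adjusted p up to 0.092).

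SPRY1, a Sprouty gene known for its role in kidney development, varied with the library letter. Its values were 5.58, 11.1 and 17.3 FPKM in LC2 A, B and C. They were 11.2, 20.7 and 18.0 FPKM in PR1 and 3.30, 5.84 and 7.45 in PR2. The A library was the lowest of its group in all 3 groups, and both derivatives overlapped the parental range. Against LC2 the log2 difference was 0.60 in PR1 (95% interval −0.25 to 1.44, limma adjusted p = 0.33) and −0.85 in PR2 (−1.70 to −0.0041, limma adjusted p = 0.14). Neither passed in the main fit, which did not use the letters. Within letters SPRY1 was higher in PR1 than in LC2 in 3 of 3 pairs and lower in PR2 in 3 of 3. With the letter as a replicate block, the SPRY1 difference passed in PR1 (limma adjusted p = 0.035). The PR2 difference passed with the block (limma adjusted p = 0.0062), although letters were not taken as pairs there, without the 3 A libraries (0.021) and without LC2 A alone (0.028). PR2 and PR1 did not overlap, and SPRY1 was lower in PR2 by −1.45 ± 0.38 on the log2 scale (SE, limma adjusted p = 0.024). That call was lost without PR1 B, PR1 C, PR2 A or PR2 B (limma adjusted p up to 0.081).

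SPRED1, the gene mutated in Legius syndrome and the SPRED protein best known for binding neurofibromin, was listed at 0 in PR2. In LC2 A, B and C its values were 1.92, 7.12 and 2.12 FPKM. In PR1 they were 0.654, 2.35 and 1.42 FPKM, and in PR2 they were 0, 0 and 0. The parental and PR1 ranges overlapped, with LC2 B well above the other parental libraries, and no PR2 library held a value. TUBB and BRD2, which most cells express, are listed at 0 in all 9 libraries, so an exact 0 in this table may mean that the estimate failed. Unlike them, SPRED1 had a value in each LC2 and PR1 library. Whether its 0 in PR2 is a failed estimate was not tested, and no fold is given. As listed, SPRED1 was called lower in PR2 than in LC2 (limma adjusted p = 0.0029). This call held in 13 of 13 alternatives, LC2 B left out included, with a highest limma adjusted p of 0.012. The alternatives take the zeros of PR2 as they stand, so they cannot tell whether the estimate failed. SPRED1 was also called lower in PR2 than in PR1 (limma adjusted p = 0.039). That call was lost without PR1 B, PR1 C, PR2 A, PR2 B or PR2 C, where the limma adjusted p reached 0.12. In PR1 the log2 difference from LC2 was −0.82 (95% interval −1.64 to −0.00033, limma adjusted p = 0.17), lower in 3 of 3 letters. Of 11060 rows at 1 FPKM or more in every LC2 library, 13 (0.118%) were listed at 0 in every PR2 library, and SPRED1 was among them. No row was in the reverse position, at 1 FPKM in every PR2 library and at 0 in every LC2 library. The next gene on one side of SPRED1, FAM98B, had means of 6.66, 9.04 and 7.59 FPKM in LC2, PR1 and PR2 and passed in no comparison (limma adjusted p = 0.21, 0.56 and 0.48). On the other side TMCO5A was listed at 0 in every library.

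SPRED2, a widely expressed SPRED gene, had the highest mean of the 6 in parental cells. Its values were 18.9, 20.7 and 24.2 FPKM in LC2, then 19.8, 21.3 and 21.9 in PR1 and 15.4, 13.1 and 13.7 in PR2. PR1 lay inside the parental range, and all PR2 libraries lay below both. PR1 and LC2 differed by −0.0095 on the log2 scale, with a 95% interval of −0.33 to 0.31 (limma adjusted p = 0.97). The mean was 21.2 ± 2.69 FPKM in LC2 (SD, n = 3) and 14.1 ± 1.20 in PR2, where SPRED2 fell by 0.56 ± 0.14 on the log2 scale (SE, limma adjusted p = 0.018). The call was lost without LC2 C, PR2 B or PR2 C (limma adjusted p up to 0.078). Against PR1 the log2 fold change was −0.55 ± 0.14 (limma adjusted p = 0.023), lost without PR1 B, PR1 C, PR2 B or PR2 C (limma adjusted p up to 0.098).

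SPRED3, the SPRED protein that lacks a working KIT-binding domain, was near the floor everywhere. Its values were 0.149, 0.321 and 0.207 FPKM in LC2, 0.141, 0.142 and 0.0608 in PR1 and 0.0558, 0.118 and 0.0562 in PR2. Every parental library was above every library of the derivatives, at levels under 1 FPKM. SPRED3 did not reach the level needed for testing. With no filter on low values, over 18691 rows, its log2 difference was −0.19 in PR2 against LC2 (limma adjusted p = 0.049) and −0.14 in PR1 (limma adjusted p = 0.15). SPRY3, the remaining Sprouty gene and not among the 6, was listed at 0 in every library. As with TUBB and BRD2, that 0 may be a failed estimate, so it does not show that SPRY3 is absent.

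**Figure D2:**
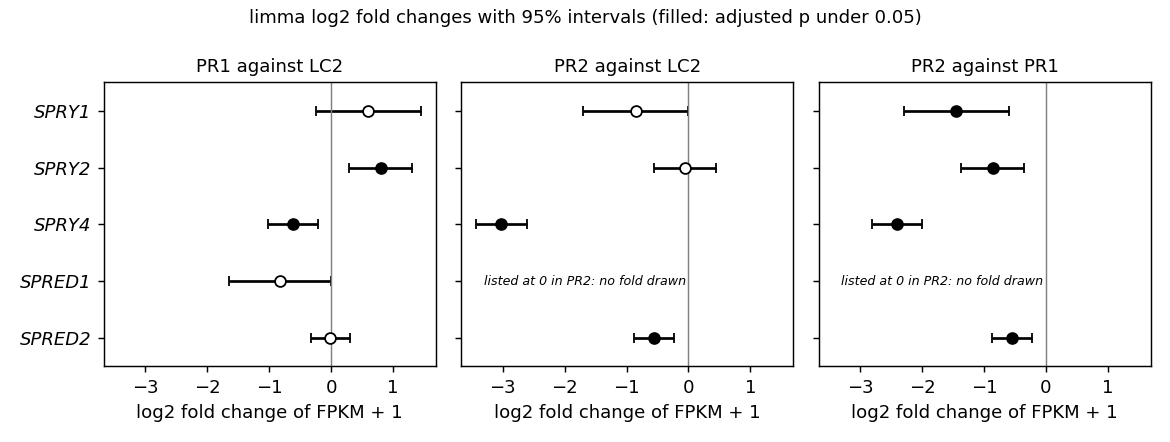
Limma log2 fold changes of FPKM + 1 for the 5 genes tested (points) with 95% intervals (bars) in PR1 against LC2, PR2 against LC2 and PR2 against PR1; filled points have an adjusted p under 0.05. SPRY4 is farthest from 0 in both comparisons with PR2, at −3.02 and −2.41, and no fold is drawn for SPRED1 in PR2, where it is listed at 0.

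In PR1 against LC2, 1 of the 5 genes tested was called higher and 1 lower, beside 7.56% and 7.98% of all rows tested. In PR2 against LC2, 3 of 5 were called lower, beside 9.83% of all rows, and 0 higher by limma, beside 13.6%, with 0 higher at an unadjusted p under 0.05 as well. In PR2 against PR1, 5 of 5 were called lower, beside 8.92% of all rows, and 0 higher by limma, beside 11.0%, again with 0 at an unadjusted p under 0.05. SPRY4 and SPRED1 reached 1 FPKM in LC2 and PR1 libraries and in no PR2 library, so the filter itself favoured genes that differ there, and these counts are a description. The comparisons share libraries and are not independent of each other. With the letter as a replicate block, 3 of the 5 genes were called in PR1 against LC2, SPRY1 being added, and the count over all rows went from 1866 to 3088. In PR2 against PR1 the block left 5 of 5 called and took the count over all rows from 2395 to 3789.

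The 6 genes together summed to 49.0, 70.4 and 83.5 FPKM in LC2 A, B and C. The sums were 65.1, 84.0 and 87.2 FPKM in PR1 and 38.2, 34.9 and 38.4 in PR2. PR1 overlapped LC2, and every PR2 library was below every other library. The means were 67.6 ± 17.5, 78.8 ± 11.9 and 37.2 ± 1.93 FPKM (SD, n = 3). The makeup of the sum differed as well. SPRY4 made up 19.6% ± 0.901 (SD, n = 3) of it in LC2, 10.4% ± 1.37 in PR1 and 1.94% ± 0.484 in PR2. SPRY2 made up 26.4% ± 2.29 in LC2, 39.8% ± 2.05 in PR1 and 45.0% ± 3.10 in PR2. The SPRED2 share was 32.3% ± 5.46 in LC2, 27.0% ± 3.02 in PR1 and 37.9% ± 2.44 in PR2, with ranges that overlapped between LC2 and both derivatives. In PR2, SPRY2 and SPRED2 thus held most of what remained.

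**Figure D3:**
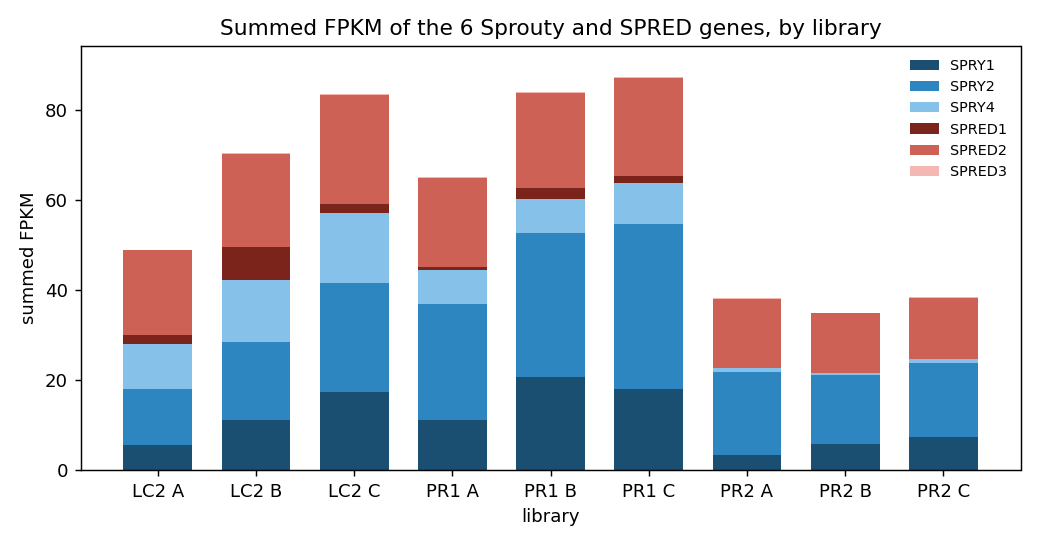
Summed FPKM of the 6 genes in each of the 9 libraries (bars), divided by gene, with Sprouty genes in blue and SPRED genes in red. The PR2 bars reach 34.9 to 38.4 FPKM and hold almost no SPRY4, against 49.0 to 87.2 FPKM in the other libraries.

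By mean FPKM the order in LC2 was SPRED2, SPRY2, SPRY4, SPRY1, SPRED1 and SPRED3, and each gene overlapped the next except SPRED1, which was clear of SPRED3. In PR1 the order was SPRY2, SPRED2, SPRY1, SPRY4, SPRED1 and SPRED3. Only SPRED2 and SPRY1 overlapped there. In PR2 it was SPRY2, SPRED2, SPRY1, SPRY4, SPRED3 and SPRED1, with only SPRY2 and SPRED2 overlapping. SPRY4 thus overlapped SPRY2 and SPRY1 in LC2 and lay clear below both in the derivatives.

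Across the 9 libraries, Pearson's r of log2(FPKM + 1) was 0.95 between SPRY4 and SPRED2, 0.87 between SPRY4 and SPRED1 and 0.79 between SPRY1 and SPRY2. It was 0.38 between SPRY2 and SPRY4 and 0.18 between SPRY2 and SPRED1. The points share their 3 groups, so these values describe group patterns. Among 7919 tested single-gene rows with a mean of at least 5 FPKM, those most like SPRY4 were S100P, a calcium-binding protein gene (r = 0.995), USF2, a transcription factor gene (0.992), and THEM6 (0.986). S100P stood at 629 ± 252 FPKM in LC2 (SD, n = 3), 314 ± 35.1 in PR1 and between 3.22 and 5.06 in the PR2 libraries. Those most like SPRED2 were the ETS factor gene ETV5 (0.988), the hexokinase gene HK2 (0.967) and LRIG1 (0.966), an inhibitor of receptor kinases. SPRED1 was most like NAPA (0.958), PIAS3 (0.957) and CP (0.956), SPRY1 most like PRKAB1 (0.986), GMPR2 (0.977) and TSC22D1 (0.974), and SPRY2 most like CERK (0.934), DCAF11 (0.926) and ADCY9 (0.924).

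The genes beside the Sprouty and SPRED loci, by their order in the RefSeq annotation, were read for comparison. NDFIP1, next to SPRY4, had means of 37.9, 28.0 and 28.9 FPKM in LC2, PR1 and PR2 and passed in no comparison (limma adjusted p = 0.068, 0.075 and 0.88). NDFIP2, next to SPRY2, rose in PR2, with log2 fold changes of 0.86 against LC2 and 0.60 against PR1 (limma adjusted p = 0.0071 and 0.043), where SPRY2 was −0.057 and −0.86. ACTR2, next to SPRED2, and ANKRD50, next to SPRY1, passed in no comparison.

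Genes that ERK activity is known to induce, as it does SPRY4, were counted from a list, to be read beside the shares of all rows called above. Of 22 tested, 2 were higher and 1 lower in PR1 against LC2, with a median log2 fold change of 0.083 beside 0.047 over all rows. In PR2 against LC2, 4 were higher and 6 lower (median −0.21 beside 0.030), and in PR2 against PR1, 1 was higher and 7 lower (median −0.41 beside 0.0038). ETV4 and ETV5, which encode ETS transcription factors, fell in PR2, with log2 fold changes of −3.19 and −2.71 against LC2 (limma adjusted p = 8.9e-05 and 0.00012) beside −3.02 for SPRY4. In PR1 they differed from LC2 by −0.63 and −0.37 (limma adjusted p = 0.21 and 0.43). The list did not move one way: in PR2 FOSL1, an AP-1 subunit gene, rose by 1.88 and PLAUR, the urokinase receptor gene, by 1.70 (limma adjusted p = 0.027 and 0.00068). In PR1 PLAUR rose by 0.93 (limma adjusted p = 0.024), and the FOSL1 difference of 1.57 did not pass (limma adjusted p = 0.073). HMGA2 rose in PR1 and PR2 by 1.60 and 1.10 (limma adjusted p = 0.00064 and 0.0029). CXCL8, the interleukin 8 gene, fell in both, with log2 fold changes of −1.02 and −2.43 (limma adjusted p = 0.047 and 0.00037).

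Other inhibitors of the pathway were counted beside the Sprouty and SPRED genes. Of 15 tested, 2 were higher and 2 lower in PR1, 3 higher and 6 lower in PR2 against LC2, and 0 higher by limma and 6 lower in PR2 against PR1 (2 higher at an unadjusted p under 0.05). Over all rows tested, 7.56% were higher and 7.98% lower in PR1, 13.6% and 9.83% in PR2 against LC2, and 11.0% and 8.92% in PR2 against PR1. The medians of the 15 were 0.18, −0.69 and −0.62. DUSP6, the phosphatase that inactivates ERK, went from 148 ± 43.3 FPKM in LC2 (SD, n = 3) to 63.2 ± 19.1 in PR1 and 8.86 ± 4.76 in PR2. Like SPRY4 it was lower in both derivatives, with log2 fold changes of −1.21 and −3.97 (limma adjusted p = 0.040 and 4.3e-05). LRIG1 fell in PR2, from 14.3 ± 6.70 to 0.335 ± 0.0962 FPKM (SD, n = 3, log2 fold change −3.42, limma adjusted p = 8.9e-05). CBLC, a CBL-family ubiquitin ligase gene, fell in PR1 and PR2 (log2 fold changes −1.23 and −2.01, limma adjusted p = 0.015 and 0.00068). RASAL2, a RAS GTPase-activating protein gene, rose in both derivatives, by 0.75 and 1.11 (limma adjusted p = 0.034 and 0.0034). SH2B3 rose in both as well, by 0.55 and 0.56 (limma adjusted p = 0.032 and 0.021). RASA1 rose in PR2 by 0.58 (limma adjusted p = 0.015) and differed by 0.18 in PR1 (limma adjusted p = 0.45).

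**Figure D4:**
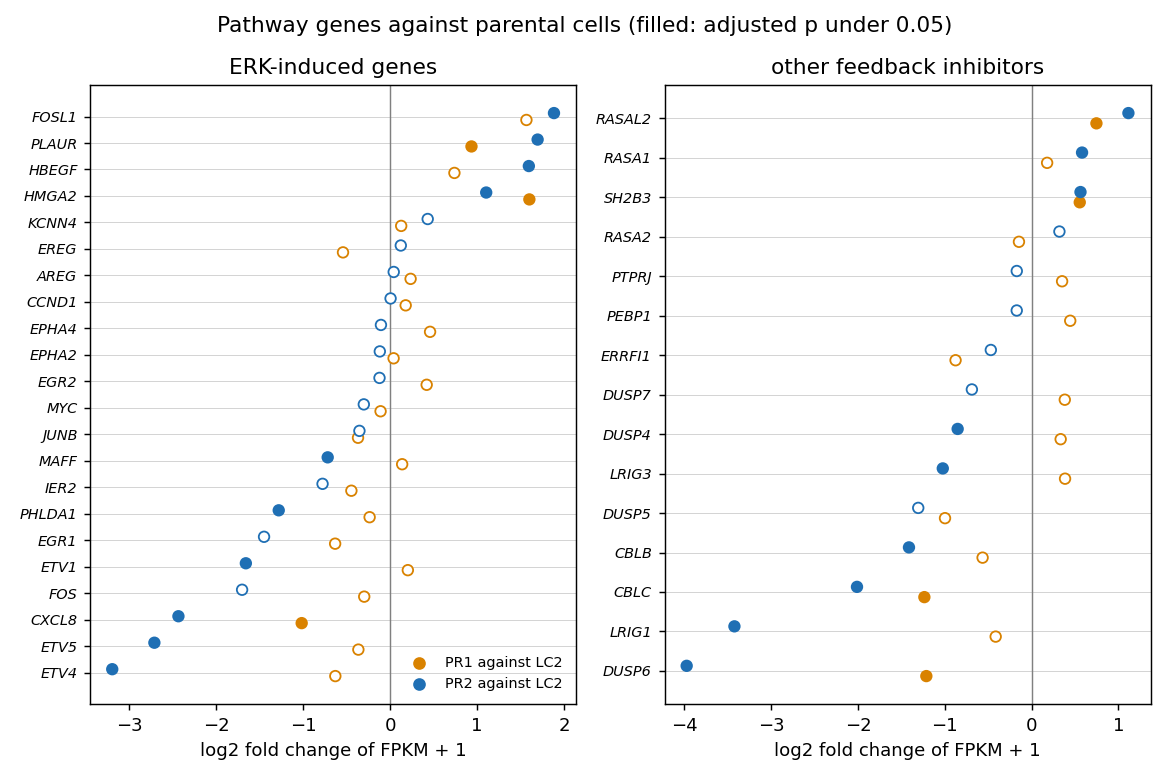
Limma log2 fold changes of FPKM + 1 against LC2 in PR1 (orange) and PR2 (blue) for the 22 ERK-induced genes and the 15 other feedback inhibitors tested, ordered by the PR2 value; filled points have an adjusted p under 0.05. DUSP6 (−3.97), LRIG1 (−3.42), ETV4 (−3.19) and ETV5 (−2.71) lie lowest in PR2, while FOSL1 (1.88) and PLAUR (1.70) lie highest among the ERK-induced genes.

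Genes of proteins that Sproutys bind or that act with them were counted next. Of 16 tested, 1 was higher and 1 lower in PR1, 4 higher and 1 lower in PR2, and 2 higher and 1 lower in PR2 against PR1. The shares over all rows were 7.56% and 7.98%, 13.6% and 9.83%, and 11.0% and 8.92%, so most of these counts are near the background. CAV1, encoding caveolin, a membrane protein that binds Sproutys, rose in PR1 and PR2 by 2.88 and 3.67 (limma adjusted p = 0.0088 and 0.0015). GRB2, the adaptor that Sprouty proteins bind, fell in PR1 (log2 fold change −0.84, limma adjusted p = 0.0027) and was 0.97 higher in PR2 than in PR1 (limma adjusted p = 0.0010). CBL, the ubiquitin ligase bound by SPRY2, was 0.82 higher in PR2 than in LC2 (limma adjusted p = 0.015) and 0.62 in PR1 (limma adjusted p = 0.061). SH3KBP1, a CBL-interacting adaptor gene, rose in PR2 and TESK1, a kinase gene, fell there, with log2 fold changes of 1.13 and −0.48 (limma adjusted p = 0.0023 and 0.049).

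In the list of SPRED partners, which did not include KIT, NF1 alone was called. Of 10, 8 had a row of their own and were tested, and NRAS and LZTR1 lay in combined rows and were left out. None passed limma in PR1 or PR2 against LC2 (0 and 1 at an unadjusted p under 0.05). In PR2 against PR1, 1 of the 8 was higher, beside 11.0% of all rows. It was NF1, higher by 0.62 (limma adjusted p = 0.042). NF1 stood at 9.59 ± 1.38 FPKM in LC2 (SD, n = 3), 7.70 ± 1.96 in PR1 and 12.2 ± 1.28 in PR2. KIT, a receptor kinase that binds SPRED proteins, rose in both derivatives, by 0.64 and 1.43 (limma adjusted p = 0.015 and 0.00010), at levels of at most 2.67 ± 0.425 FPKM. Of 14 receptor tyrosine kinases tested, 5 were higher and 1 lower in PR1, 4 higher and 3 lower in PR2, and 3 higher and 3 lower in PR2 against PR1. The shares over all rows were 7.56% and 7.98%, 13.6% and 9.83%, and 11.0% and 8.92%. The fibroblast growth factor receptor genes FGFR3, in PR2, and FGFR4, in PR1, fell, with log2 fold changes of −1.23 and −0.55 (limma adjusted p = 0.012 and 0.026). FGFR1, named after its values were seen, rose in both, by 0.74 and 0.97 (limma adjusted p = 0.010 and 0.0015). RET fell in PR2, with log2 fold changes of −0.71 against LC2 and −0.89 against PR1 (limma adjusted p = 0.0040 and 0.0015). Of 7 tested genes whose proteins have an EVH1 domain as SPRED proteins do, 1 was higher and 1 lower in PR1 (VASP 0.49 and HOMER2 −2.18, limma adjusted p = 0.045 and 0.00068). In PR2 1 was higher and 2 lower, and in PR2 against PR1 2 were higher and 1 lower. These counts of few genes are to be read beside the same shares over all rows.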

How the data were processed

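Per the labels, RNA came from column extraction and libraries from a TruSeq kit. Tools in the submitters' processing notes are Cuffdiff 2.2.1, Cufflinks 2.2.1 and TopHat2 2.0.14, and the build is hg19 (GRCh37). The annotation and the number of reads are not stated in any source used here. In a single table, the authors deposited FPKM values in 24069 rows and 9 library columns. The unit is inferred from the tools named and from the steps between low values, since the header names none. Absolute depth is unknown.

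The 12011 rows that reached 1 FPKM in 3 or more of 9 libraries were tested as log2(FPKM + 1) with limma 3.58.1 in R 4.3.3, with 1 mean per group over all 9 libraries and an intensity trend. Tests were two-sided, Benjamini-Hochberg adjustment ran over all rows, and the threshold was 0.05. The procedure was run on simulated data for PR2 against LC2 only, with independent noise and no letter effect. The planted changes were larger than several called here, so that run does not test those. Promoter windows and gene order came from RefSeq (GRCh38.p14) by symbol, and no coordinates were converted.

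The 6 genes and all lists were chosen with earlier results of these data known. Per comparison, up to 2 called genes of each list that rose most and 2 that fell most were named, plus DUSP6, ETV4, ETV5, NF1, CBL, RET and KIT, and the 3 genes most correlated with each tested Sprouty or SPRED gene. Some genes so chosen are not reported here. Neighbouring genes and rows listed at 0 were added after the data were seen.

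Letters were checked for pairing by correlating deviations from group means across rows. Same-letter libraries correlated at 0.31, 0.48 and 0.16 (A, B, C) in PR1 and LC2 and at 0.53, 0.54 and 0.25 in PR2 and PR1. Unlike letters gave −0.43 to 0.068 and −0.56 to 0.24, the last close to letter C in PR2 and PR1. Deviations within a group cancel out in each row, so positive values for same letters partly force low values for unlike letters. Letters were taken as pairs in these 2 comparisons. In PR2 and LC2 the same-letter values were 0.30, 0.42 and 0.014, and letters were not taken as pairs. The main fit did not use the letters, and the replicate block did. Alternatives were a pseudocount of 0.1, no filter, a filter at 5 FPKM, quantile normalization, no trend, only the groups compared, a replicate block, and leaving out the A libraries or each library in turn. Protein sequences were not used here.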

Additional observations from a re-analysis of the deposited data

Results flagged for a closer look

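Each derivative was compared with the same parental libraries, so the direct comparison of PR2 with PR1 is also the test of whether their changes from parental cells differ. All 5 genes tested were called lower there, beside 8.92% of all rows tested. SPRY4 and SPRED1 passed the filter through LC2 and PR1 libraries only, so this count is a description. The log2 difference of PR2 against PR1 was −2.41 for SPRY4, −1.45 for SPRY1, −0.86 for SPRY2 and −0.55 for SPRED2 (limma adjusted p = 2.9e-05, 0.024, 0.025 and 0.023). SPRED1, listed at 0 in each PR2 library, had a limma adjusted p of 0.039. For SPRY4 the change from LC2 went the same way in both derivatives and was larger in PR2 (−3.02 against −0.61). For SPRY2 it was a rise of 0.80 in PR1 beside a difference of −0.057 in PR2 that did not pass. Only the SPRY4 difference passed in each of the 14 alternatives run.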

How the results depend on the processing

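No log2 fold change of a tested Sprouty or SPRED gene changed the direction of a call: of their values under the alternatives, 164 stayed on their side of the threshold, 38 fell short of it and 4 passed it. The number of these genes called in PR1 against LC2 was 2. It was 1 with a pseudocount of 0.1, with a filter at 5 FPKM and after quantile normalization, 0 without a filter (6 genes tested) and 0 in the fit of only the groups compared, and 0 to 1 with a library left out. In PR2 against LC2 it was 3. It was 2 with the filter at 5 FPKM, which left SPRED1 untested, and 2 without LC2 C, PR2 B or PR2 C, where SPRED2 was lost. It was 4 without a filter, where SPRED3 was added, and 4 without LC2 A or the 3 A libraries, where SPRY1 was added. In PR2 against PR1 it was 5, 3 without a filter, and 1 to 5 with a library left out: SPRY4 alone remained without PR1 B, PR1 C or PR2 B. With the paired fit, a replicate block of letters, the numbers were 3, 4 and 5, SPRY1 being the gene added in both comparisons with LC2, and no other call of these genes changed. Over all rows the counts called were 1866, 2814 and 2395. They were 1207, 1811 and 1573 with the filter at 5 FPKM, which tests fewer rows, and fell as low as 1014, 1670 and 1307 with a library left out. With the block they were 3088, 4113 and 3789. Other causes were not tested. The planned protein alignment was not run. Leaving out 1 library ended each call of these genes except SPRY4 in both comparisons with PR2 and SPRED1 in PR2 against LC2. Values below 1 FPKM, such as those of SPRED3, lie near the floor of the table.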
